A study of Saccharomyces cerevisiae with 18 samples.

Results

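Glycolysis and alcoholic fermentation genes of Saccharomyces cerevisiae were followed in cultures carrying ten1-31, a temperature-sensitive allele of TEN1, and in wild-type (WT) cultures. The genes were chosen by their enzymatic role from a list of 32 systematic names, of which 30 had a row among the 5143 rows of the count table. HXK1 and GLK1, which encode a hexokinase and the glucokinase, were not analysed here. The list holds the hexose-phosphorylating enzymes, every step from phosphoglucose isomerase to pyruvate kinase, the pyruvate decarboxylases, the alcohol dehydrogenases, the phosphoglucomutases and 2 aldehyde dehydrogenases. All 30 rows passed the filter on low counts.

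RNA was sequenced from 3 ten1-31 and 3 WT samples after depletion of ribosomal RNA. Ten1 belongs to the Cdc13-Stn1-Ten1 complex, which caps telomeres, and the study asked, by its title, how that complex bears on RNA polymerase II. For all 6 samples, cells were saturated overnight at 25 °C and diluted to an OD600 of about 0.2. They were then grown at 34 °C for nearly 5 h to an OD600 between 0.5 and 0.6. The WT cells thus met the same heat as the mutants. The labels give neither the strain background nor the carbon source, and they do not say whether the replicates were separate cultures or clones, so p-values measure only the spread between these samples.

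Glycolysis splits glucose into pyruvate and yields ATP. In budding yeast growing on glucose, most pyruvate is decarboxylated to acetaldehyde and reduced to ethanol, which restores NAD+. Many steps have isoenzymes: one gene of each set is usually transcribed at a very high level on glucose, and others are known to be induced when glucose runs out, by stress, or to serve the reverse reaction or another compartment.

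Library totals ranged from 10469608 to 13561078 counts in ten1-31 and from 11635219 to 14442999 counts in WT. TEN1 itself had 319 to 419 counts in ten1-31 libraries, against 97 to 132 counts in WT libraries, so the mutated gene's transcript was higher in the mutant (log2 fold change 1.77 ± 0.13, standard error; adjusted p = 7.15e-05, edgeR) and the groups did not overlap. Rows of 3 chromosomes were shifted as a block. The median log2 fold change, ten1-31 over WT, was 0.42 for the 290 rows of chromosome XI, 0.38 for the 174 rows of chromosome IX and 0.355 for the 236 rows of chromosome VIII, while the medians of all other chromosomes lay between -0.09 and 0.02. The chromosome XI shift was present in all ten1-31 libraries, but chromosome VIII was raised in ten1-31 replicates 1 and 2 only. FBA1, GPM1 and PGM1 lie on chromosome XI and ENO2 on chromosome VIII, and none of the measured genes of the list lies on chromosome IX. The series also holds input DNA samples of both genotypes, which were not analysed here. Chromosome copy number was therefore not examined, and its part in the results for these 4 genes was not tested.

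Of the 30 genes, 9 were higher and 9 lower in ten1-31 at an adjusted p-value under 0.05 (edgeR's quasi-likelihood test, Benjamini-Hochberg over 5133 rows). That is 60% called, where 50.5% of all rows tested were called, 24.3% of rows being higher and 26.2% lower. Scaling by library size alone moved the higher share of all calls to 60.4%, against 48.2% with TMM, while 9 members were still called higher and 8 lower. Without ten1-31 replicate 2, 8 members were called higher and 5 lower. The median log2 fold change was 0.04 for the 30 genes and -0.004 for all rows. The median size of the change without regard to sign was 0.40 for the 30 genes and 0.28 for all rows. Changes of at least 2-fold were called for 3 genes in each direction (6 of 30), where 6.21% of all rows met the same rule, 4.03% higher and 2.18% lower: ADH2, PDC6 and ALD4 rose, and ADH5, TDH1 and ADH4 fell. For 21 of the 30 genes every ten1-31 library lay on one side of every WT library, as for 60.5% of all rows. By step, calls were made for 2 of 5 genes of upper glycolysis, 5 of 10 of lower glycolysis and 2 of 3 pyruvate decarboxylase genes. In addition, 5 of 6 alcohol dehydrogenase genes and both genes each of the phosphoglucomutase and aldehyde dehydrogenase pairs were called. Leaving out the 4 genes on chromosomes XI and VIII left 7 higher and 9 lower among 26 genes. Because values are relative to each library's total, a change in all RNA per cell is not seen, and fewer cells of a kind and less RNA per cell cannot be told apart.

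**Figure D1:**
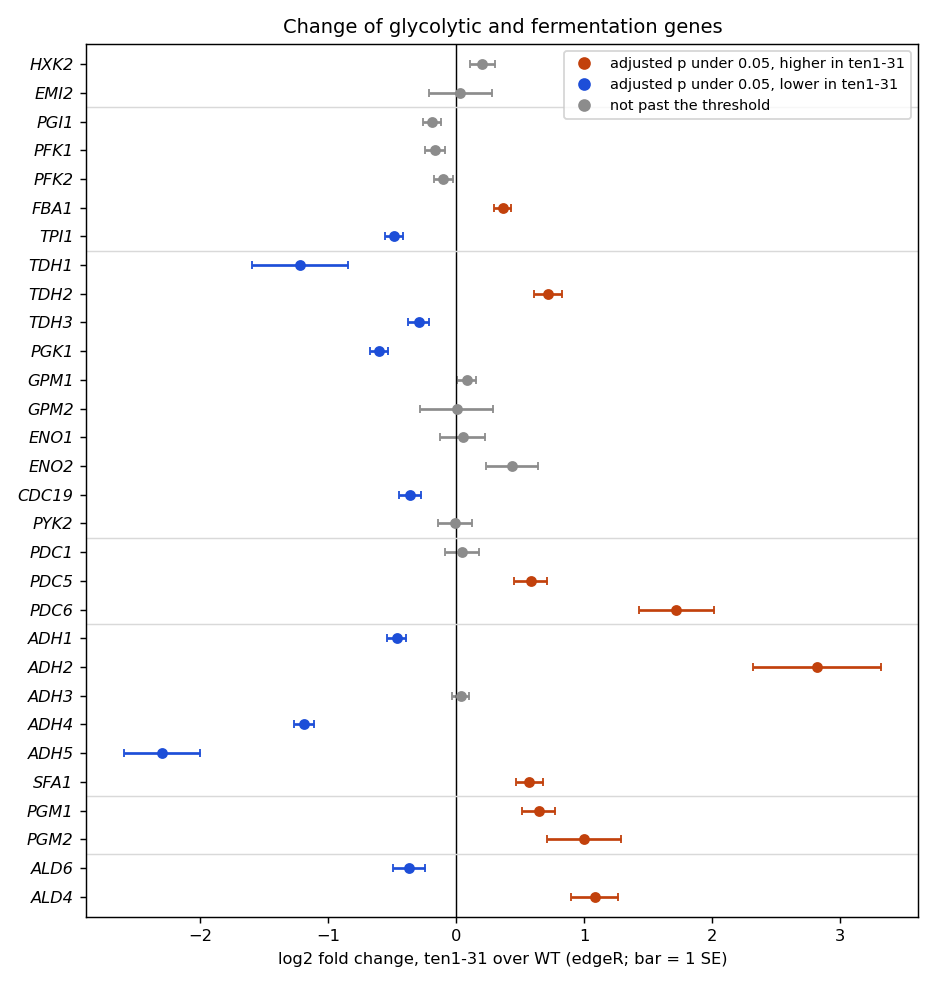
Log2 fold change of the 30 measured genes, ten1-31 over WT, from edgeR's quasi-likelihood fit; points are estimates, bars are 1 standard error, and lines separate the enzyme groups. The values run from -2.30 for ADH5 to 2.82 for ADH2, and most genes of the central steps lie within 0.7 of 0.

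As a whole, with FBA1, GPM1, PGM1 and ENO2 on the shifted chromosomes included, these genes took nearly the same part of each library. They held 10.52%, 10.26% and 9.92% of counts in ten1-31 replicates 1 to 3, against 10.29%, 10.25% and 10.02% in WT replicates 1 to 3. Their summed TPM, counts per coding length scaled to the same sum in every library, was 96921 ± 3390 in ten1-31 and 93112 ± 2260 in WT (SD, n = 3 each), with an exact permutation p of 0.3, two-sided. Levels of different genes were compared on the same scale. There TDH3, the main glyceraldehyde-3-phosphate dehydrogenase gene, ranked first among all rows with a length in every library. It stood at 15172, 14889 and 15591 TPM in ten1-31 libraries, against 18413, 16463 and 15632 TPM in WT libraries. PDC1, the main pyruvate decarboxylase gene, followed in both genotypes, with 14171 ± 241 TPM in ten1-31 and 12399 ± 2374 TPM in WT (SD, n = 3 each). PDC6 was the lowest of the list, at 2.90 ± 0.782 TPM in ten1-31 and 0.785 ± 0.0858 TPM in WT (SD, n = 3 each). In the order of mean levels, 6 of the 29 pairs of neighbours overlapped between libraries in ten1-31 and 17 of 29 in WT, so many neighbours, above all in WT, did not differ beyond their spread. TPM shifts the median log2 difference of all rows to 0.15. Differences between genotypes are therefore taken below from TMM-scaled CPM (counts relative to the scaled library size), on which that median is 0.0004. As CPM, the sum of the measured genes was slightly lower in ten1-31, the opposite direction to TPM. No sum was taken without the genes on the shifted chromosomes.

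**Figure D2:**
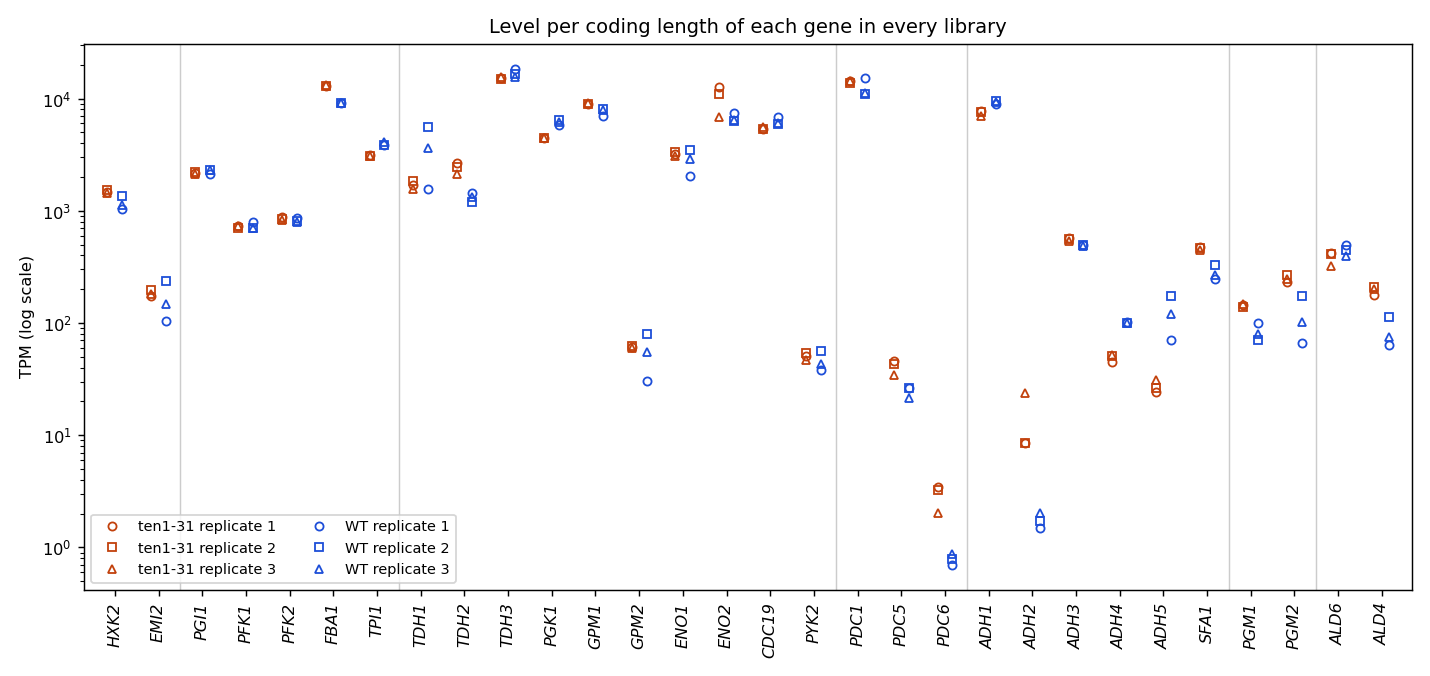
Level of each measured gene in TPM (log axis) in the 6 libraries, ten1-31 left and WT right for each gene; grey lines separate the enzyme groups. Levels span from PDC6, below 4 TPM in every library, to TDH3, at least 14889 TPM in every library.

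Neither measured gene of hexose entry passed the test on all 6 libraries. HXK2 (YGL253W), the main hexokinase gene on glucose, had 1816, 1856 and 1769.5 CPM in ten1-31, against 1397, 1789 and 1531 CPM in WT, and the groups overlapped at WT replicate 2. Its log2 fold change of 0.21 ± 0.10 (SE) did not pass (edgeR, adjusted p = 0.119), but it did without WT replicate 2, at 0.31 (adjusted p = 0.0118), and when each chromosome was scaled to its own median, at 0.27 (adjusted p = 0.0442). EMI2, a paralog of GLK1, had 218 to 247 CPM in ten1-31 and 144 to 322 CPM in WT (log2 fold change 0.04 ± 0.25, standard error; adjusted p = 0.919, edgeR). Its libraries spread 1.135-fold in ten1-31 and 2.23-fold in WT.

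In upper glycolysis, 1 of 5 genes rose (FBA1, though not when each chromosome was scaled to its own median), 1 fell and 3 did not pass. TPI1 (YDR050C), which encodes triose phosphate isomerase, fell: it had 1970.3, 1921 and 1908 CPM in ten1-31, against 2668, 2599 and 2836 CPM in WT. Its log2 fold change was -0.48 ± 0.07 (standard error; adjusted p = 0.00114, edgeR), and the groups were well apart. PGI1 (phosphoglucose isomerase) and the phosphofructokinase subunit genes PFK1 and PFK2 had log2 fold changes of -0.19, -0.17 and -0.10, with adjusted p-values of 0.0557, 0.120 and 0.286 (edgeR), although all 3 were lower in each ten1-31 library than in any WT library. PGI1 was called lower in 4 alternatives, among them DESeq2 (-0.18, adjusted p = 0.0204), and PFK1 with upper-quartile scaling (-0.21, adjusted p = 0.0424, edgeR). The subunit ratio PFK2/PFK1 was close in both genotypes, at 0.23 ± 0.05 on the log2 scale in ten1-31 and 0.17 ± 0.05 in WT (SD, n = 3 each), with a two-sided exact permutation p of 0.2.

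FBA1 (YKL060C), the aldolase gene, went the other way. It had 11820.1, 11737 and 11933 CPM in ten1-31, against 9237, 9046 and 9301 CPM in WT, a log2 fold change of 0.36 ± 0.07 (standard error; adjusted p = 0.00286, edgeR). This is close to the median of its chromosome XI, 0.42. Scaled within each chromosome, FBA1 had a log2 fold change of -0.07 (edgeR, adjusted p = 0.404). GPM1, the phosphoglycerate mutase gene further down the pathway, lies on the same chromosome and had a log2 fold change of 0.08 ± 0.08 (standard error; adjusted p = 0.402, edgeR). Scaled within each chromosome, GPM1 was called lower, at -0.35 (edgeR, adjusted p = 0.00482).

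**Figure D3:**
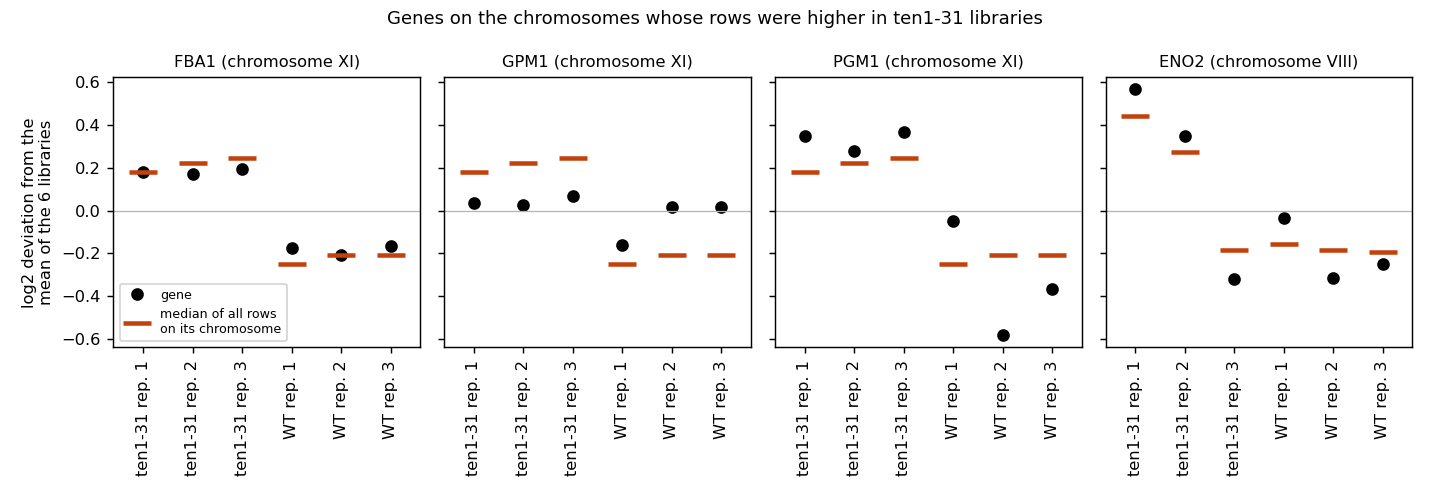
Log2 deviation of 4 genes from their mean over the 6 libraries (black points) beside the median deviation of all rows on the same chromosome (orange bars), with ten1-31 libraries left and WT right. FBA1, like chromosome XI, is high in all 3 ten1-31 libraries and ENO2, like chromosome VIII, in replicates 1 and 2 only; GPM1 varies less than chromosome XI, and PGM1 varies more.

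The 3 TDH genes encode glyceraldehyde-3-phosphate dehydrogenase and moved in different directions. TDH2 (YJR009C) rose: it had 2213, 2019.9 and 1791 CPM in ten1-31, against 1335, 1086 and 1236 CPM in WT, a log2 fold change of 0.72 ± 0.11 (standard error; adjusted p = 0.00134, edgeR). TDH3 fell by 0.29 ± 0.08 on the log2 scale (standard error; adjusted p = 0.0212, edgeR), with 12379 to 13037 CPM in ten1-31 and 14608 to 17077 CPM in WT. TDH3 lost its call when ten1-31 replicate 1 (adjusted p = 0.0767) or ten1-31 replicate 2 (adjusted p = 0.0984) was left out, and when each chromosome was scaled to its own median (-0.23, adjusted p = 0.0578; all edgeR).

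TDH1 (YJL052W), a form known from stationary and stressed cells, was even among mutants and uneven among WT. It had 1423, 1516 and 1309 CPM in ten1-31, against 1443, 5080.1 and 3376 CPM in WT. WT replicate 1 lay inside the range of the mutants and the other two WT libraries far above it. The log2 fold change was -1.22 ± 0.38 (standard error; adjusted p = 0.0287, edgeR). The call was lost without any one of the ten1-31 libraries, without WT replicate 2 (-0.77, adjusted p = 0.0670), without WT replicate 3 (-1.20, adjusted p = 0.0911) and in limma-voom (-1.04, adjusted p = 0.0579).

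As a share of the step's transcripts per coding length, TDH2 held 13.5%, 12.7% and 11.1% in ten1-31 libraries, against 6.72%, 5.14% and 6.43% in WT libraries. TDH3 held 78.8 ± 1.74% in ten1-31 and 77.6 ± 7.71% in WT (SD, n = 3 each). The log2 ratio TDH2/TDH3 was higher by 1.01 ± 0.12 (SE) in ten1-31, with no overlap between genotypes. Its two-sided exact permutation p was 0.1, the smallest that 3 against 3 libraries allow, and 0.178 after adjustment over the 16 isoenzyme pairs measured; the same 2 values hold for each of the 9 pairs without overlap. No pair could therefore reach 0.05 in this design. Of all single rows tested, 60.5% did not overlap between genotypes, and no such share was taken over other pairs of rows. The TDH genes are close copies of each other, and how the counting divided reads between them is not stated.

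Of the remaining genes of lower glycolysis, PGK1 and CDC19 fell. PGK1 (YCR012W, phosphoglycerate kinase) had 4707, 4672 and 4665 CPM in ten1-31, against 6749.7, 7360.0 and 7235 CPM in WT, a log2 fold change of -0.60 ± 0.07 (standard error; adjusted p = 0.000449, edgeR). Its ten1-31 libraries differed from one another by only 1.01-fold. CDC19 (YAL038W), the main pyruvate kinase gene, had 6755, 6674 and 7026 CPM in ten1-31, against 9649, 8178 and 8438 CPM in WT (log2 fold change -0.36 ± 0.09, standard error; adjusted p = 0.00942, edgeR). The CDC19 call was lost without ten1-31 replicate 2 (adjusted p = 0.0549).

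The enolase genes did not pass the test, and ENO2 was uneven among mutants. ENO2 (YHR174W), the form used in glycolysis, had 13830.4, 11906 and 7503 CPM in ten1-31, against 9145, 7517 and 7880.2 CPM in WT. Replicates 1 and 2 of ten1-31 stood above all WT libraries, and ten1-31 replicate 3 stood just below the lowest of them. The log2 fold change was 0.44 ± 0.21 (standard error; adjusted p = 0.111, edgeR), and 0.64 without ten1-31 replicate 3 (adjusted p = 0.00695). The median deviation of chromosome VIII rows from the 6-library mean was likewise high in those 2 libraries only, at 0.44, 0.27 and -0.18 in ten1-31 replicates 1 to 3 against -0.19 to -0.15 in WT. Scaled within each chromosome, ENO2 had a log2 fold change of 0.045 (edgeR, adjusted p = 0.73). ENO1, the form associated with gluconeogenesis, had 3375 to 3674 CPM in ten1-31 and 2470 to 4200 CPM in WT (log2 fold change 0.05 ± 0.17, standard error; adjusted p = 0.825, edgeR). GPM2, a minor paralog of GPM1, and PYK2, a pyruvate kinase form for low glycolytic flux, had log2 fold changes of 0.004 and -0.01, with adjusted p-values of 0.991 and 0.973 (edgeR).

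Among the pyruvate decarboxylase genes, the abundant PDC1 did not pass and both minor genes rose. PDC1 had 20318.5, 19563 and 20249.6 CPM in ten1-31, against 23777, 16802 and 17666 CPM in WT (log2 fold change 0.05 ± 0.13, standard error; adjusted p = 0.793, edgeR). Its WT libraries straddled the mutants, and without WT replicate 1 it was called higher, at 0.22 (edgeR, adjusted p = 0.0295). PDC5, which is known to be induced when Pdc1 is missing, had 828, 649 and 681 counts in ten1-31, against 571, 463 and 443 counts in WT. Its log2 fold change was 0.58 ± 0.13 (standard error; adjusted p = 0.00702, edgeR). PDC6 (YGR087C), a barely transcribed form on glucose, had 63, 49 and 40 counts in ten1-31, against 15, 14 and 18 counts in WT, with a log2 fold change of 1.72 ± 0.29, or 3.30-fold (standard error; adjusted p = 0.00225, edgeR). The groups did not overlap. PDC6 had at most 0.0242% of the counts of PDC1 in any library, and how reads of such similar genes were divided is not stated. The log2 ratios PDC5/PDC1 and PDC6/PDC1 were higher in ten1-31 by 0.52 ± 0.19 and 1.64 ± 0.35 (SE) without overlap, but PDC1 held 99.66% to 99.75% of the step in ten1-31 libraries and 99.75% to 99.82% in WT libraries.

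**Figure D4:**
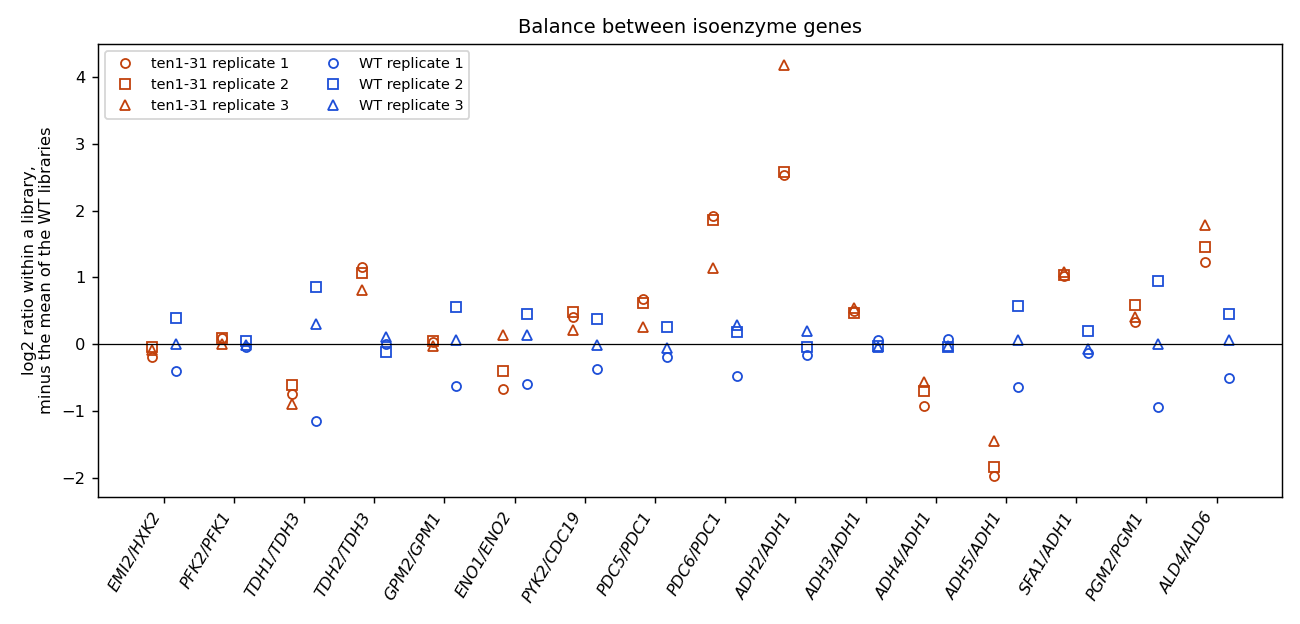
Log2 ratio of 2 isoenzyme genes within a library, per coding length, drawn as the distance from the mean of the 3 WT libraries; ten1-31 libraries are left and WT libraries right for each pair. In 9 of 16 pairs the genotypes do not overlap, and several of these pairs share ADH1 or PDC1. Of all single rows tested, 60.5% do not overlap, but no such share was taken over other pairs of rows. ADH2/ADH1 lies farthest above 0 and ADH5/ADH1 farthest below it.

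The alcohol dehydrogenase genes held both the largest rise and the largest fall among the 30 genes. ADH1 (YOL086C), the enzyme that makes ethanol, fell: it had 6823, 6625 and 6112 CPM in ten1-31, against 8719.9, 9049 and 9206 CPM in WT, a log2 fold change of -0.46 ± 0.07 (standard error; adjusted p = 0.00174, edgeR). All mutants lay below all WT libraries. Its share of the 6 genes per coding length was 87.1 ± 0.452% in ten1-31 and 90.3 ± 0.584% in WT (SD, n = 3 each).

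ADH2 (YMR303C), the glucose-repressed form that consumes ethanol (chromosome XIII, 873291 to 874337 in assembly R64), rose, at a low level in both genotypes. It had 95, 80 and 293 counts in ten1-31, against 20, 19 and 26 counts in WT. Exact 95% Poisson intervals, which cover counting error only, were 76.9 to 116, 63.4 to 99.6 and 260 to 329 counts in the ten1-31 libraries and did not reach above 38.1 counts in any WT library. The log2 fold change was 2.82 ± 0.50, or 7.07-fold (standard error; adjusted p = 0.00262, edgeR). The size leaned on ten1-31 replicate 3, which stood 2.81-fold above the lowest mutant; without it the log2 fold change was 2.11, and the call held. ADH2 was still 0.163 ± 0.115% of the step in ten1-31 and 0.0170 ± 0.00226% in WT (SD, n = 3 each). Its coding sequence resembles that of ADH1, and the division of reads between them is not stated.

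ADH5 and ADH4 fell. ADH5 (YBR145W, chromosome II, 533762 to 534817 in assembly R64), a minor form that can also make ethanol, had 274, 247 and 387 counts in ten1-31, against 944, 1915 and 1559 counts in WT. The log2 fold change was -2.30 ± 0.30 (standard error; adjusted p = 0.000681, edgeR), with WT libraries spread 2.41-fold. The neighbouring gene YBR144C has no row of its own. ADH4 (YGL256W, chromosome VII, 15159 to 16307 in assembly R64), an enzyme of a different family whose transcript is known to respond to zinc, had 43.1, 49.0 and 49.5 CPM in ten1-31, against 109.7, 105 and 108 CPM in WT. Its log2 fold change was -1.19 ± 0.08 (standard error; adjusted p = 5.15e-05, edgeR), with a narrow spread in both genotypes.

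SFA1 rose and ADH3 did not pass. SFA1 (YDL168W) encodes a bifunctional alcohol and glutathione-dependent formaldehyde dehydrogenase; it had 459, 449 and 430.3 CPM in ten1-31, against 265, 346 and 290.4 CPM in WT (log2 fold change 0.57 ± 0.10, standard error; adjusted p = 0.00299, edgeR). ADH3, the mitochondrial enzyme, was at 524 ± 19.7 CPM in ten1-31 and 511 ± 7.45 CPM in WT (SD, n = 3 each; edgeR, adjusted p = 0.674). Set against ADH1 within each library, ADH2, SFA1 and ADH3 were higher in ten1-31 by 3.10 ± 0.55, 1.05 ± 0.10 and 0.50 ± 0.04 on the log2 scale (SE). ADH5 and ADH4 were lower against ADH1, by -1.75 ± 0.39 and -0.73 ± 0.11 (SE). None of these 5 ratios overlapped between genotypes. All 5 share ADH1, which itself fell (log2 fold change -0.46), so they are not separate results.

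Both phosphoglucomutase genes rose. These enzymes interconvert glucose-6-phosphate and glucose-1-phosphate, the branch to glycogen, trehalose and galactose use. PGM2 (YMR105C), the major form, had 334, 379 and 356 CPM in ten1-31, against 104, 269 and 162 CPM in WT. Every mutant was above every WT library, with a log2 fold change of 0.9997 ± 0.291 (standard error; adjusted p = 0.0226, edgeR), just under the 2-fold limit at 1.9995-fold. The PGM2 call was lost without ten1-31 replicate 2 (adjusted p = 0.0589) or WT replicate 3 (adjusted p = 0.0969). PGM1, on chromosome XI, had 208, 198 and 211 CPM in ten1-31, against 158, 109 and 127 CPM in WT (log2 fold change 0.65 ± 0.13, standard error; adjusted p = 0.00430, edgeR). Scaled within each chromosome, its log2 fold change was 0.21 (edgeR, adjusted p = 0.2245). The balance of both genes varied so much in WT, where PGM2 held 39.8%, 71.1% and 56.0% of the pair, that the mutants, at 61.6% to 65.7%, lay inside that range.

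The aldehyde dehydrogenase genes moved apart. ALD4 (YOR374W), the mitochondrial and glucose-repressed form (chromosome XV, 1039840 to 1041399 in assembly R64), had 234, 271 and 261 CPM in ten1-31, against 92.0, 159.7 and 110.4 CPM in WT. It rose by a log2 fold change of 1.08 ± 0.19, or 2.12-fold (standard error; adjusted p = 0.00233, edgeR). ALD6 (YPL061W), the main cytosolic form on glucose, had 528, 519.95 and 402 CPM in ten1-31, against 693, 615 and 560.5 CPM in WT, with a log2 fold change of -0.37 ± 0.13 (standard error; adjusted p = 0.0428, edgeR). The ALD6 call sat at the threshold and was lost in each of the 6 fits that left out a library, with adjusted p-values up to 0.102 (edgeR). Per coding length, ALD4 held 30.0%, 33.5% and 38.5% of the pair in ten1-31 libraries, against 11.3%, 20.02% and 15.96% in WT libraries, so the groups did not overlap.

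The spread within a genotype was itself uneven across these genes. In WT, 7 genes (TDH1, EMI2, GPM2, ENO1, ADH5, PGM2 and ALD4) differed at least 1.5-fold between the lowest and highest library, and all 7 were lowest in replicate 1 and highest in replicate 2. The ratio of replicate 2 to replicate 1 ran from 1.70 for ENO1 to 3.52 for TDH1. Just under the limit, PYK2 (1.432-fold) had the same order. PDC1 (1.415-fold) and PGM1 (1.447-fold) had the opposite one, lowest in replicate 2 and highest in replicate 1. How many of all rows pass this limit or have either order was not counted. In ten1-31, 3 genes differed at least 1.5-fold, namely ENO2, ADH2 and PDC6. Over all 30 genes, 70.0% spread more widely in WT than in ten1-31, where 74.3% of all rows tested did. TDH1, ADH5, PGM2 and ALD4 are among the genes called between genotypes, and what set the WT libraries apart was not tested.

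**Figure D5:**
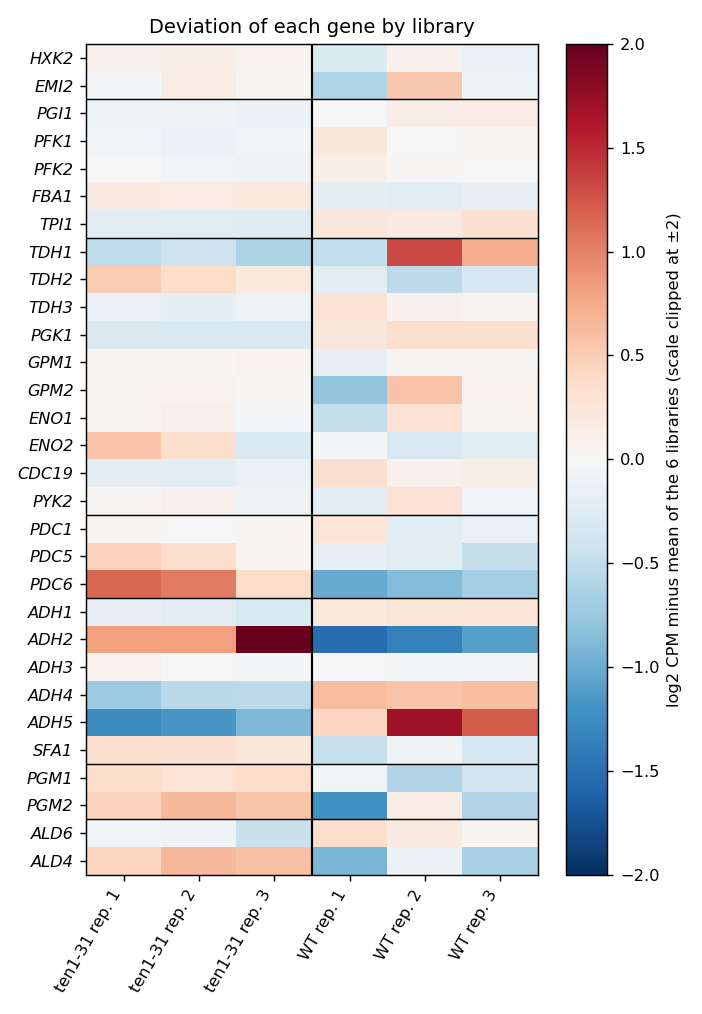
Log2 CPM of each measured gene minus its mean over the 6 libraries, with ten1-31 libraries left and WT libraries right; horizontal lines separate the enzyme groups, red is above and blue below the mean. WT replicates 1 and 2 lie on opposite sides of the mean for TDH1, EMI2, GPM2 and ENO1, whereas the 3 ten1-31 libraries are alike for most genes.

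Genes that regulate these steps or lead away from them were read from 5 lists, with 43 of 45 genes measured (GND2 and TKL2 were not analysed here). Of the 43, 12 rose and 7 fell (edgeR, adjusted p under 0.05), 44.2% against 50.5% of all rows, with a median log2 fold change of 0.04. Among 13 regulators, 4 rose and 1 fell. Those with a change of at least 2-fold were ADR1, the activator of ADH2 and other glucose-repressed genes, and HAP4, the activator subunit for respiratory genes. ADR1 had 441, 446 and 393 CPM in ten1-31, against 131, 240.5 and 163 CPM in WT (log2 fold change 1.26 ± 0.20, standard error; adjusted p = 0.00164, edgeR). HAP4, on chromosome XI, had 197 to 244 CPM in ten1-31 and 74.5 to 136 CPM in WT, a log2 fold change of 1.19 ± 0.21 (standard error; adjusted p = 0.00284, edgeR), and 0.76 when scaled within each chromosome (adjusted p = 0.0133). GCR1, GCR2 and RAP1, which activate the highly transcribed glycolytic genes, did not pass, with log2 fold changes of 0.16, 0.04 and -0.06 and adjusted p-values of 0.0680, 0.718 and 0.578 (edgeR). GCR1 passed in 4 alternatives, among them DESeq2 (0.17, adjusted p = 0.0481). The regulator that fell was TYE7, with a log2 fold change of -0.23 ± 0.06 (standard error; adjusted p = 0.019, edgeR) and no overlap between genotypes. The TYE7 call was lost with library size only (adjusted p = 0.0858) and when scaled within each chromosome (adjusted p = 0.0712; both edgeR). It was also lost without any one of the ten1-31 libraries or without WT replicate 3.

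In the list on fructose 2,6-bisphosphate and gluconeogenesis, 3 of 8 genes rose and 2 fell. PCK1, the phosphoenolpyruvate carboxykinase of gluconeogenesis, had 1309, 543 and 1980 counts in ten1-31, against 128, 133 and 282 counts in WT (log2 fold change 2.79 ± 0.43, standard error; adjusted p = 0.00137, edgeR). It lies on chromosome XI and kept its call when scaled within each chromosome, at 2.36 (adjusted p = 0.00194). FBP1, the other enzyme particular to gluconeogenesis, did not pass, with 86, 39 and 156 counts in ten1-31 and 95, 57 and 89 counts in WT (edgeR, adjusted p = 0.633). PFK26, which makes the glycolytic activator fructose 2,6-bisphosphate, had 229 to 259 CPM in ten1-31 and 57.4 to 118 CPM in WT, a log2 fold change of 1.497 ± 0.226 (standard error; adjusted p = 0.00130, edgeR) and, scaled within its chromosome IX, 1.09 (adjusted p = 0.00391).

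The lists of neighbouring routes had 2 of 8 genes called for pyruvate dehydrogenase and the pyruvate carrier. Calls were made for 3 of 5 genes of the acetate branch and 4 of 9 of the pentose phosphate pathway. Over all rows tested, 50.5% were called. Of the 8 genes for pyruvate dehydrogenase and the mitochondrial pyruvate carrier, the carrier subunit genes MPC2 and MPC3 fell, with log2 fold changes of -1.16 ± 0.18 and -1.91 ± 0.41 (SE; edgeR, adjusted p = 0.00155 and 0.00608), and the other six did not pass. MPC2, on chromosome VIII, had 268, 241 and 179.8 CPM in ten1-31, against 403, 592 and 542 CPM in WT, and its log2 fold change was -1.53 when scaled within that chromosome (adjusted p = 0.000103, edgeR). MPC3 had 8.26 to 16.8 CPM in ten1-31 and 22.7 to 68.6 CPM in WT. In the acetate branch, 2 of 5 genes rose and ALD5, a mitochondrial aldehyde dehydrogenase gene, fell to 218 ± 26.0 CPM in ten1-31, against 665 ± 28.5 CPM in WT (SD, n = 3 each; log2 fold change -1.61; edgeR, adjusted p = 4.1e-05). ALD4 and ALD5, both mitochondrial, thus changed in opposite directions. In the pentose phosphate list, 3 of 9 genes rose and 1 fell. Among those that rose was GND1, on the shifted chromosome VIII (log2 fold change 0.70 ± 0.16, standard error; adjusted p = 0.00771, edgeR). GND1 had 1680, 1544 and 1062 CPM in ten1-31 replicates 1 to 3, against 857 to 909 CPM in WT. The median log2 fold change of all chromosome VIII rows was 0.355, and the part of this shift in the GND1 rise was not tested. NQM1, a paralog of the transaldolase gene TAL1, had 633, 543 and 676 counts in ten1-31, against 117, 215 and 213 counts in WT (log2 fold change 1.78 ± 0.23, standard error; adjusted p = 0.000720, edgeR), whereas TAL1 did not pass (log2 fold change 0.01; edgeR, adjusted p = 0.944).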

How the data were processed

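The authors deposited 1 table of read counts per gene row with a column for each of 6 RNA-seq libraries. The 12 ChIP-seq and input samples were not analysed here. Per the submitters' processing notes, FastQC, cutadapt, Trimmomatic, TopHat2, Bowtie2 and featureCounts were used with the builds R64 and sacCer3; versions, settings, strand use and row filter are not given in the sources used here. Overlapping, antisense and near-identical genes are therefore uncertain. Symbols, coordinates and coding lengths came from the RefSeq table of assembly R64, which matched 5112 of 5143 rows, all members included.

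Counts were tested with edgeR 4.0.16 (quasi-likelihood, TMM, filterByExpr with minimum count 10 and minimum total 15, genotype as the only term) in R 4.3.3; 5133 rows were tested, with a threshold of 0.05 on the Benjamini-Hochberg adjusted p. The procedure was checked on simulated counts, drawn independently, with a small part of the rows changed 2-fold and no chromosome shift. Those settings differ from these data, so the check covers the procedure and not the calls made here. CPM are TMM-scaled. TPM and ratios within a library used counts per coding length. Ratios, shares and sums were compared with two-sided exact permutation tests (scipy 1.17.1). Alternatives were other scalings, row filters, tools (DESeq2 1.42.0, limma-voom in limma 3.58.1), thresholds, a replicate block and leaving out each library; scaling within each chromosome and leaving out genes on shifted chromosomes were added after seeing the data.

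Members and lists were chosen with earlier results of these data known. Values in every library were planned for members called at 2-fold or more, for pairs whose ratio differed by at least 1 on the log2 scale without overlap and for the most abundant member; from other lists, called genes with at least a 2-fold change, at most 4 each. Further genes were named after their values were seen. Promoter and protein sequences were not analysed here. Depth was at least 10469608 counts per library, so the number of libraries limits precision for all but the rarest transcripts.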

Additional observations from a re-analysis of the deposited data

How the results depend on the processing

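Of the 18 calls among the measured genes, 11 held in all 15 refits (ADH1, ADH2, ADH4, ADH5, ALD4, PDC5, PDC6, PGK1, SFA1, TDH2 and TPI1), with adjusted p-values up to 0.0346. TDH1, TDH3, CDC19, PGM2 and ALD6 lost theirs in some refits, as given with each gene, and ALD6 also with library size only (adjusted p = 0.0783) and within chromosomes (0.0575); the cause was not tested. Scaling within each chromosome, whose construction removes a shift shared by a chromosome, turned FBA1 to -0.072, GPM1 to -0.352 (adjusted p = 0.00482) and, in the other lists, MSN4 to -0.0645 and SOL3 to -0.30 (adjusted p = 0.0318), and PGM1 lost its call. The number of rows called was 2591, against 1660 at an adjusted p under 0.01 and 319 with at least a 2-fold change, both smaller by construction; without one library it ran from 1824 to 2974. Members called were 9 higher and 9 lower, 8 and 8 within chromosomes, and 3 and 3 at 2-fold or more; without one library, 8 to 10 were higher and 5 to 9 lower, the lowest without ten1-31 replicate 2. The other lists had 12 higher and 7 lower, 5 and 3 at 2-fold or more, 15 and 6 with library size only, and 15 and 7 in DESeq2.

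Some small ratios and sums also changed sign, and their exact tests could not reach 0.05 in this design. EMI2/HXK2 ran from -0.305 to 0.0953, GPM2/GPM1 from -0.294 to 0.298 and PGM2/PGM1 from -0.0328 to 0.915 without one library. The summed TPM of lower glycolysis differed by 0.002 on the log2 scale (from -0.0329 to 0.0473 without one library) and by -0.14 as CPM, that of all 30 genes by 0.06 and by -0.0738 as CPM, and that of the aldehyde dehydrogenases by 0.13 and by -0.0098 as CPM; TPM moves the median of all rows by 0.15. No pairing by number is stated in the labels. The correlation of deviations within genotypes was 0.20, 0.21 and 0.09 for same-numbered libraries and -0.23 to 0.05 for the others, so each library correlated best with its own number, a hint from the data and not the design, and not all 3 passed 0.1. A fit with the replicate block called 2630 rows, of which 2475 were also called without that term, and the members called stayed at 9 higher and 9 lower, while 14 genes of the other lists were higher, CAT8 (1.06, adjusted p = 0.0137) and ALD3 (0.46, adjusted p = 0.0147) gaining calls; the isoenzyme ratios could then not go below an exact p of 0.25.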
